A study of Homo sapiens with 6 samples.

Results

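The transcripts of 10 heat shock protein genes were compared between a Hep3B clone silenced for SDHB and a control clone: HSP90AA1, HSP90AB1, HSPA8, HSPA4, HSPH1, HSPD1, HSPE1, HSPB1, DNAJA1 and DNAJB1. Their probe sets were taken by gene symbol from the annotation of the Affymetrix HG-U133 Plus 2.0 array, which gave 29 of the 54675 probe sets on the array, and each probe set was kept apart. Of these, 25 carried 1 gene symbol and stood for 9 genes. The other 4 were listed for HSPA8 together with SNORD14C and SNORD14D, small nucleolar RNA genes that lie within HSPA8 in the RefSeq gene table, and are reported under that shared listing. Hep3B is a human hepatocellular carcinoma cell line. The control, pU6 clone 2, carried the plasmid pU6, and clone D20 carried the plasmid siSDHB, directed against the iron-sulfur subunit of succinate dehydrogenase. Both lines were kept under G418 and harvested nearly confluent, and RNA of each went to 3 arrays, lettered A, B and C. Each group is 1 clone and nothing in the labels places the 3 arrays in separate cultures, so the p-values take in only how arrays of 1 clone vary, a variation that may be technical, and silencing and clone cannot be told apart. SDHB itself was not analysed here.

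Heat shock proteins are molecular chaperones: they bind unfolded or partly folded proteins, prevent their aggregation and help them reach their native state. The HSP70 proteins work in an ATP cycle in which J-domain proteins deliver substrates and start ATP hydrolysis, and nucleotide exchange factors such as the HSP110 proteins release the bound ADP; HSP90 then matures many kinases and receptors. In the mitochondrial matrix the HSP60 barrel and its HSP10 lid enclose imported proteins while they fold. When unfolded proteins accumulate, the transcription factor HSF1 binds heat shock elements, arrays of inverted GAA units, and raises the transcription of many of these genes.

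The array signals are MAS5 values on a linear scale, with a median between 77.7 and 92.4 on the 6 arrays, and differences are given on the scale log2(signal + 16). Across tested probe sets, and these are not independent of each other, log2 signals correlated at a Pearson's r of 0.964 to 0.967 within the control clone, 0.953 to 0.962 within D20 and 0.880 to 0.890 across the clones. The ratio of the 3′ to the 5′ control probe set, a measure of RNA integrity, was 1.08 to 1.15 for GAPDH in the control and 1.11 to 1.25 in D20, and 1.42 to 1.90 and 1.40 to 1.68 for ACTB, so that the clones overlapped in both. Of 14 tested hepatocyte markers 11 were lower and 2 higher in D20. Their summed signal was 382108 to 393814 in the control and 179395 to 202985 in D20, with ALB (albumin) at 43678 ± 1275 (SD, n = 3) and 43935 ± 3964, and AFP (alpha-fetoprotein) at 20570 ± 643 and 403 ± 54.0. Of 7 tested fibroblast markers 1 was higher and 2 lower. The summed signal of all 8 was 1197 to 1397 and 4225 to 4989. Of this COL1A1 gave 1.23 ± 0.50 in the control and 3780 ± 407 in D20, while COL3A1 stood at 20.2 ± 12.3 and 20.3 ± 11.6. LUM stood at 160 ± 45.0 and 8.30 ± 9.07. The filter line for dim signals was 43.2, so the summed probe sets of COL1A1 and LUM passed it through 1 clone alone, and no fold is read from them. Of 4 tested biliary markers 2 were higher and 1 lower, with sums of 19527 to 20386 and 20919 to 23576. None of 2 tested blood markers and 1 of 1 endothelial marker was called, the latter higher. The sums of the 4 blood markers on the array were 251 to 375 and 143 to 244, and of the 5 endothelial markers 105 to 202 and 281 to 327. The part of these shifts in the results below was not tested.

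The heat shock protein transcripts moved in both directions and by small amounts. HSPE1 and DNAJA1 fell in D20. HSPH1 rose by 2 of its 3 probe sets and HSP90AA1 by 2 of its 4, while HSPA4 was called in both directions. HSPD1, HSP90AB1, HSPB1, DNAJB1 and the HSPA8 listing were not called by their bright probe sets at the deposited scale. Of the 25 probe sets with 1 symbol 24 passed the filter on dim signals, and in a limma fit over 32768 probe sets with Benjamini-Hochberg adjustment 5 were called higher and 5 lower. These are 20.8% in each direction and 41.7% in either, close to the background of 19.5% of all tested probe sets called higher, 17.0% lower and 36.5% either way. The arrays of the clones did not overlap for 14 of the 24, or 58.3%, against 47.2% of all tested probe sets. The median log2 fold change of the 24 was 0.04 and that of all tested probe sets 0.03, and the median size regardless of sign was 0.26 against 0.44. A change of at least 2-fold was seen in 2 of the 24, both dim probe sets, against 17.6% of all tested. Among the 20 probe sets with a control mean above a signal of 1000, the largest change was 0.77 on the log2 scale. The dim ones of the 24 had larger standard errors, such as 0.25 for 208814_at of HSPA4 beside 0.08 for the bright 208815_x_at. The shares and sizes above were not compared at matched brightness. They do not show whether the members moved less than other probe sets of like signal.

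**Figure D1:**
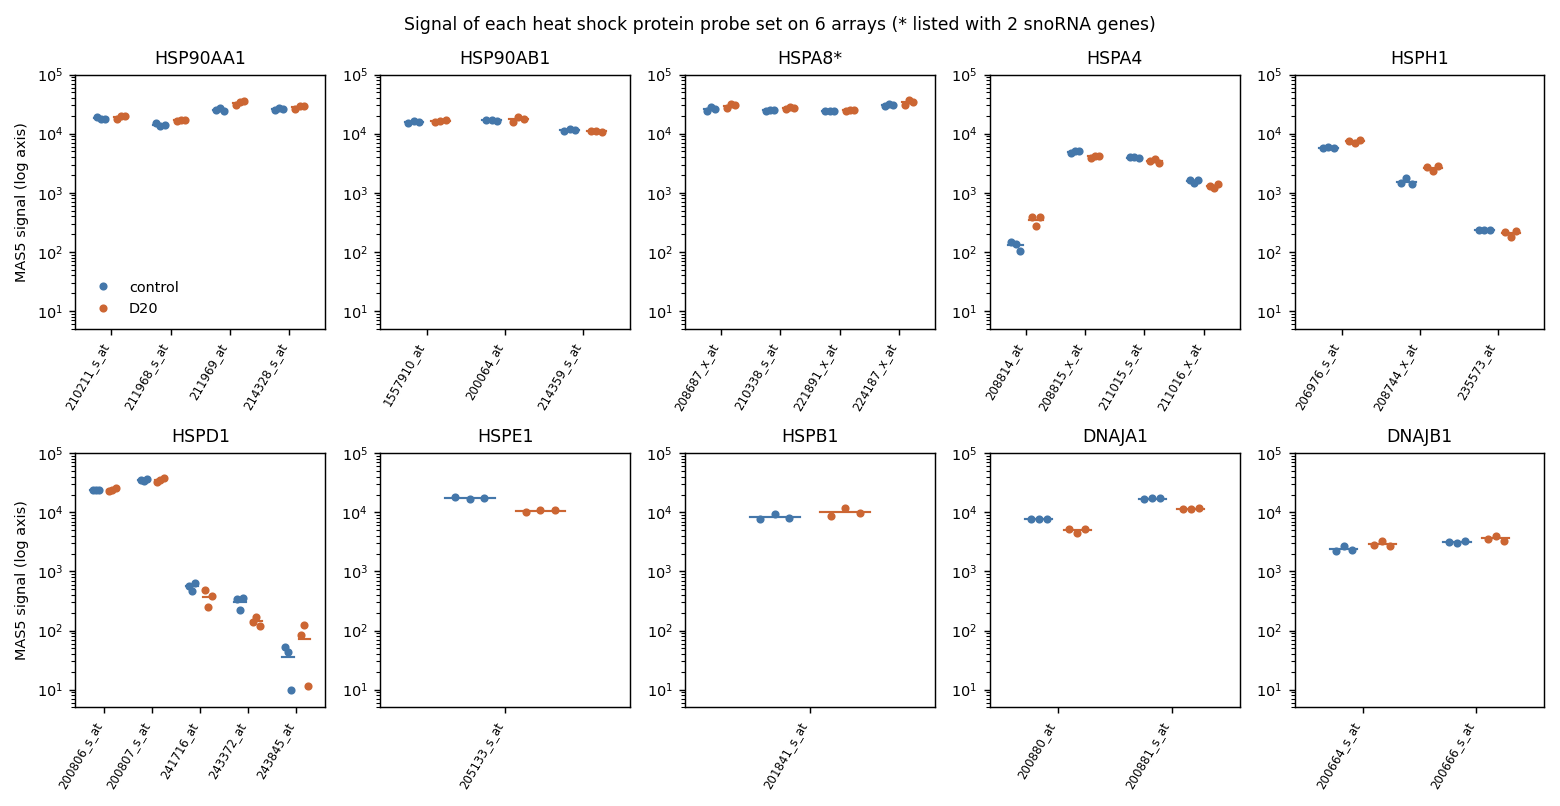
MAS5 signal (log axis) of each of the 29 probe sets on the 3 control arrays (blue) and the 3 D20 arrays (orange), with the mean of each clone as a horizontal line. The arrays of the clones lie apart for HSPE1 and for both DNAJA1 probe sets, with D20 lower, while those of the bright HSPD1 probe sets 200806_s_at and 200807_s_at lie on top of each other.

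HSP90 is encoded in the cytosol by the stress-inducible HSP90AA1 (HSP90-alpha) and the constitutive HSP90AB1 (HSP90-beta). HSP90AA1 rose by 2 of its 4 probe sets. Probe set 211969_at read 24650, 26938 and 24236 on control arrays A, B and C and 30132, 34686 and 35844 on D20 arrays A, B and C. All D20 arrays lay above all control arrays, and the log2 fold change was 0.41 ± 0.08 (SE; limma, adjusted p = 0.0021). Probe set 211968_s_at rose from 14163 ± 796 (SD, n = 3) to 16815 ± 288, by 0.25 on the log2 scale (adjusted p = 0.019). The call of 211968_s_at was lost in 6 of 14 alternative settings, with a log2 fold change of 0.13 (adjusted p = 0.23) where each array was centred on its median, and that of 211969_at was lost without the variance trend (adjusted p = 0.058). The remaining probe sets, 210211_s_at and 214328_s_at, overlapped between the clones at 18115 ± 701 against 19428 ± 1262 and 26075 ± 805 against 28320 ± 2038. Their log2 fold changes were 0.10 (adjusted p = 0.35) and 0.12 (adjusted p = 0.27). So the 4 probe sets of HSP90AA1 had the same sign and differed in size, and with median centring the 2 not called stood at -0.020 and -0.0029.

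HSP90AB1 did not pass the test in any of its 3 probe sets, though spike-in scaling called 200064_at (0.33, adjusted p = 0.027) and 1557910_at (0.32, adjusted p = 0.026) higher. Probe set 200064_at read 16758, 17259 and 16297 in the control and 15971, 18808 and 18026 in D20. The D20 arrays lay on both sides of the control arrays, and the 95% interval of the log2 fold change was -0.11 to 0.24 (adjusted p = 0.56). Probe set 1557910_at gave 0.06 (-0.10 to 0.22) and 214359_s_at -0.06 (-0.22 to 0.10). Within each array the log2 signal of 211969_at for HSP90AA1 minus that of 200064_at for HSP90AB1 was 0.56, 0.64 and 0.57 in the control and 0.92, 0.88 and 0.99 in D20. This difference widened by 0.34 between the clones without overlap. It holds for this probe set of HSP90AA1, the one with the largest change of the 4. Probe sets 210211_s_at and 214328_s_at had log2 fold changes close to that of 200064_at. Probe set 211969_at was picked as the brightest over all 6 arrays, D20 included, so its own rise entered the choice. In the control 214328_s_at was brighter, at 26075 against 25275. The two-sided exact permutation p of the difference between the genes was 0.1, the smallest that 3 arrays against 3 can give. It was 0.13 after Benjamini-Hochberg adjustment over the 4 pairs compared. No conclusion is drawn from this p, since the values compared also chose the probe set.

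Heat shock elements in the promoter windows of these genes are shown because HSF1 acts through them. RefSeq (GRCh38.p14) gave 16 windows for the 10 genes, each from 250 bases before a start to 50 after it, and all 10 genes matched. They were searched for 3 alternating units, GAANNTTCNNGAA or its reverse complement TTCNNGAANNTTC, which covers both strands. The motif was found in 5 of the 16 windows and in 5 of the 10 genes, and in 0.49% of all 35116 windows. It is a description of letters, not evidence that a factor binds. The matching stretches follow, each 5′ to 3′ on the strand of the gene, with the motif in capitals.

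HSP90AA1 (chr14:102087112-102087140, minus strand): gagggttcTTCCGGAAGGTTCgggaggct
HSP90AB1 (chr6:44247770-44247798, plus strand): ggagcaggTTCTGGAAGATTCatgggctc
HSP90AB1 (chr6:44247823-44247851, plus strand): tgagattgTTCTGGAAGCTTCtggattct
HSPA8 (chr11:123062346-123062374, minus strand): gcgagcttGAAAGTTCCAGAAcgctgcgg
HSPA8 (chr11:123062171-123062199, minus strand): cgggccccTTCTGGAAGGTTCtaagatag
HSPD1 (chr2:197500061-197500090, minus strand): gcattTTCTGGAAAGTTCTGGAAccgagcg
DNAJA1 (chr9:33025268-33025296, plus strand): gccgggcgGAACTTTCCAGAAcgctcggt

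The HSPD1 stretch holds 2 overlapping matches, and the DNAJA1 match lies within the 50 bases after the start. The genes with a match include HSP90AA1, which rose by 2 of its 4 probe sets, and DNAJA1, which fell. They also include HSP90AB1 and HSPD1, whose bright probe sets were not called. HSPH1, which rose, and HSPE1, which fell, had none in their window, nor had HSPA4, HSPB1 or DNAJB1. The HSPD1 match lies in the window chr2:197499791-197500090. The other HSPD1 window, chr2:197500225-197500524, which holds the bases between HSPD1 and HSPE1, had none. On the plus strand the HSPD1 match also precedes HSPE1, just outside the HSPE1 window, which begins at 197500129. Pairs of units, GAANNTTC or TTCNNGAA, are far more common: they stood in 13.5% of all windows, those within the 3-unit motif included. Of the 10 genes 7 had such a pair, HSPB1 and DNAJB1 among them. The 250 bases before the start of HSP90AA1 that holds the match, chr14:102087045-102087294 on the minus strand, carried a further pair of units, TTCNNGAA, beyond the 3-unit motif, both in capitals.

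HSP90AA1 upstream: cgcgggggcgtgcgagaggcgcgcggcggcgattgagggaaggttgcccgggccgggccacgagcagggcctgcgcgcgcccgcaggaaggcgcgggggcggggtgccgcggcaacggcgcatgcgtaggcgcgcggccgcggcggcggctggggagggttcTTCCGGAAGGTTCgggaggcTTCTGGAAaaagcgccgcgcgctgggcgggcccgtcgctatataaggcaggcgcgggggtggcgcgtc

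HSPA8 encodes HSC70, the constitutive HSP70 of the cytosol. The 4 probe sets listed for HSPA8 and the 2 small nucleolar RNA genes were bright, and none was called. Probe set 224187_x_at read 28941, 31284 and 29956 in the control and 30938, 36388 and 34587 in D20. The lowest D20 array lay below the highest control array, and the log2 fold change was 0.17 ± 0.08 (SE; limma, adjusted p = 0.11). Probe sets 208687_x_at (0.19, adjusted p = 0.087), 210338_s_at (0.12, adjusted p = 0.22) and 221891_x_at (0.03, adjusted p = 0.75) had the same sign. With median centring 221891_x_at turned to -0.09, while quantile normalization called 208687_x_at and 224187_x_at higher (adjusted p = 0.0042 and 0.0028) and spike-in scaling called all 4 higher (0.29 to 0.45, adjusted p = 0.0070 to 0.029).

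HSPA4 and HSPH1 belong to the HSP110 family, which exchanges nucleotide on HSP70. HSPH1 rose by 2 of its 3 probe sets. Probe set 206976_s_at read 5619, 5927 and 5682 in the control and 7636, 6917 and 7846 in D20. The clones lay apart, with a log2 fold change of 0.38 ± 0.08 (SE; limma, adjusted p = 0.0027), which was not called without the variance trend (adjusted p = 0.053). Probe set 208744_x_at, whose suffix marks that it can match other transcripts, read 1437, 1764 and 1426 in the control and 2707, 2366 and 2827 in D20. Its log2 fold change of 0.77 ± 0.11 (adjusted p = 1.7e-04) was called in all 14 alternatives, between 0.65 and 1.03. The dim probe set 235573_at stood at 237 ± 1.93 and 207 ± 23.5, with a log2 fold change of -0.18 (adjusted p = 0.56) that turned to 0.06 with spike-in scaling.

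The probe sets of HSPA4 (also called APG-2) disagreed. The 3 brighter ones were lower in D20: 208815_x_at read 4674, 5026 and 5083 in the control and 3882, 4220 and 4239 in D20, with -0.26 ± 0.08 (SE; limma, adjusted p = 0.027) as the log2 fold change. Probe sets 211015_s_at (-0.18, adjusted p = 0.13) and 211016_x_at (-0.27, adjusted p = 0.078) had the same sign and did not pass the test. The arrays of the clones did not overlap in any of these 3. The dim probe set 208814_at read 149, 136 and 105 in the control and 388, 273 and 389 in D20. It rose by 1.32 ± 0.25 (SE; limma, adjusted p = 9.4e-04), the largest rise among the 24, and was called in all 14 alternatives. The call of 208815_x_at was lost in 6 of them, and with spike-in scaling its log2 fold change was -0.0019 (adjusted p = 0.99). The suffix of 208815_x_at and 211016_x_at marks that they can match other transcripts, while 208814_at carries neither that suffix nor _s_at. Which HSPA4 transcripts each probe set reads was not analysed here.

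**Figure D2:**
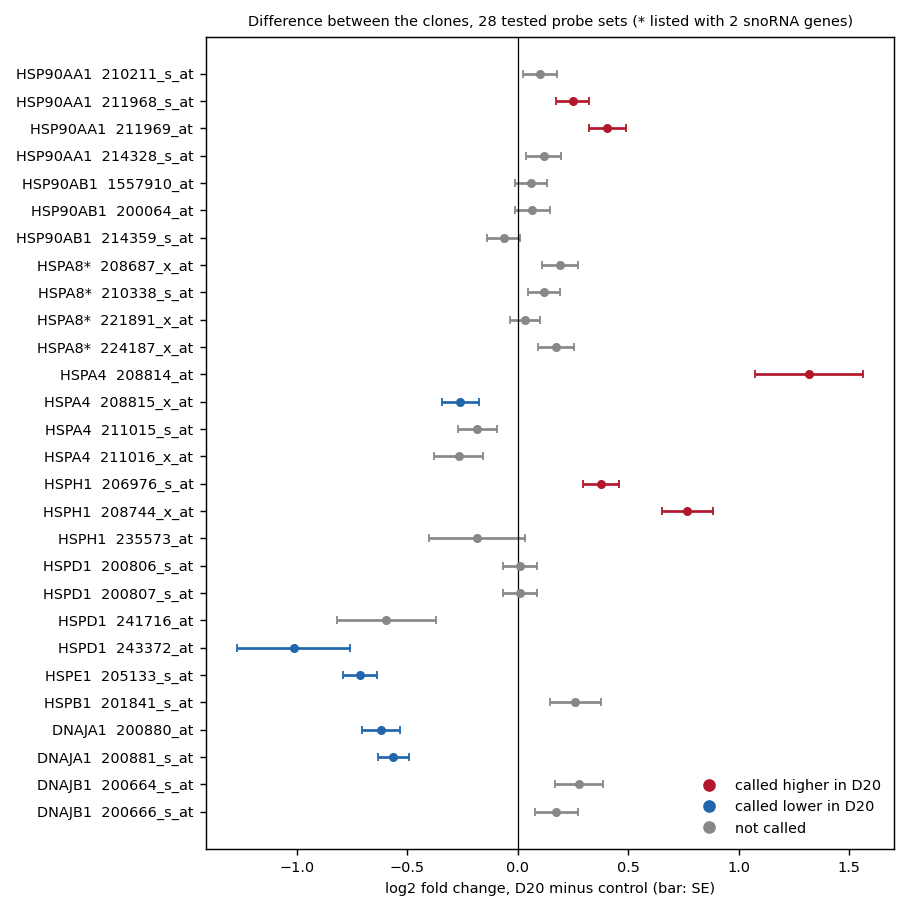
Log2 fold change, D20 minus control, of the 28 tested probe sets, 24 with 1 symbol and 4 listed for HSPA8 and 2 small nucleolar RNA genes; points are estimates of the limma fit, bars the standard error, red called higher, blue called lower, grey not called. HSPE1 and both DNAJA1 probe sets lie between -0.71 and -0.56, and the 2 points beyond 1 in size are the dim probe sets 208814_at of HSPA4 and 243372_at of HSPD1.

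HSPD1 (HSP60) and HSPE1 (HSP10) are the barrel and lid of the mitochondrial chaperonin. HSPE1, with 1 probe set, 205133_s_at, read 18484, 16971 and 17244 in the control and 10082, 10982 and 11094 in D20. Every D20 array lay below every control array, at 10719 ± 555 (SD, n = 3) against 17566 ± 806. The log2 fold change was -0.71 ± 0.08 (SE; limma, adjusted p = 1.1e-05), and it was called in all 14 alternatives, between -0.83 and -0.45. HSPD1 showed no such difference in its bright probe sets. Probe set 200807_s_at read 35414, 33912 and 36008 in the control and 33123, 34928 and 38321 in D20. The D20 arrays lay on both sides of the control arrays, with a log2 fold change of 0.01 and a 95% interval of -0.15 to 0.18 (adjusted p = 0.93). Probe set 200806_s_at gave 24104 ± 182 and 24352 ± 1882, also a log2 fold change of 0.01 with an interval of -0.15 to 0.18.

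Within each array the log2 signal of HSPE1 minus that of HSPD1 (200807_s_at) was -0.937, -0.998 and -1.06 in the control and -1.71, -1.67 and -1.79 in D20. The clones did not overlap, and the difference between the genes changed by -0.72 (two-sided exact permutation p = 0.1, the smallest possible; 0.13 adjusted over the 4 pairs). A scaling of whole arrays barely touches such a difference, and it lay between -0.76 and -0.69 in the alternatives run. The genes lie head to head on chromosome 2, and in RefSeq 104 bases separate them. This shared stretch, chr2:197500275-197500378, is given on the plus strand because it precedes the start of both genes, 1 of which fell and 1 of which was not called by its bright probe sets.

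HSPD1 to HSPE1: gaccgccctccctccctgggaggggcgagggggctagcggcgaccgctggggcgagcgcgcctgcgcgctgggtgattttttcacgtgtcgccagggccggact

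The 3 other HSPD1 probe sets were dim. Probe set 243372_at read 339, 227 and 360 in the control and 138, 170 and 121 in D20, and fell by 1.01 ± 0.25 (SE; limma, adjusted p = 0.0070) without overlap. This fall was called in all 14 alternatives, with a log2 fold change between -1.21 and -0.77. Probe set 241716_at stood at 557 ± 83.7 and 373 ± 119, with a log2 fold change of -0.60 (adjusted p = 0.054), just short of the threshold of 0.05. Probe set 243845_at, at 35.6 ± 22.6 and 73.0 ± 56.9, was the 1 member left out as dim and was not tested. The bright and dim probe sets of HSPD1 thus gave different readings of the gene.

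HSPB1 (HSP27) is a small heat shock protein that holds unfolded proteins without ATP. Its probe set 201841_s_at read 7852, 9429 and 7885 in the control and 8711, 11991 and 9621 in D20. The clones overlapped, since D20 array A lay below control array B, and the log2 fold change was 0.26 ± 0.12 (SE; limma, adjusted p = 0.10). It was called higher in 4 of 14 alternatives, among them quantile normalization (0.37, adjusted p = 0.011) and without D20 replicate A (0.36, adjusted p = 0.027), while without D20 replicate B the log2 fold change was 0.13 (adjusted p = 0.35).

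DNAJA1 and DNAJB1 are J-domain proteins (HSP40) that deliver substrates to HSP70. DNAJA1 fell by both of its probe sets. Probe set 200881_s_at read 16740, 17195 and 17225 in the control and 11556, 11251 and 11801 in D20, and probe set 200880_at read 7796, 7593 and 7637 against 5306, 4485 and 5227. Neither showed any overlap, and their log2 fold changes were -0.56 ± 0.07 and -0.62 ± 0.09 (SE; limma, adjusted p = 3.9e-05 and 9.6e-05). Both were called in all 14 alternatives, from -0.74 to -0.30. DNAJB1 was not called. Probe set 200664_s_at read 2241, 2647 and 2339 in the control and 2838, 3297 and 2654 in D20, where every D20 array lay above every control array by a narrow gap. Its log2 fold change was 0.28 ± 0.11 (adjusted p = 0.060), and it was called in 5 of 14 alternatives. Probe set 200666_s_at, at 3194 ± 138 and 3620 ± 377, overlapped and gave 0.18 (adjusted p = 0.18). Within each array the log2 signal of DNAJA1 (200881_s_at) minus that of DNAJB1 (200666_s_at) was 2.38, 2.49 and 2.37 in the control and 1.69, 1.48 and 1.85 in D20. It changed by -0.74 without overlap, with a two-sided exact permutation p of 0.1 (0.13 adjusted over the 4 pairs). The fourth pair, HSPH1 (206976_s_at) minus the HSPA8 listing (224187_x_at), changed by 0.20 from -2.38 ± 0.02 (SD, n = 3) to -2.18 ± 0.19 (exact permutation p = 0.2, adjusted 0.2), and was 0.12 without D20 replicate A and 0.31 without D20 replicate B.

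The small differences depended on how the arrays were scaled. When spiked-in poly-A controls set the scale, the median log2 fold change of all tested probe sets moved by 0.24, from 0.03 to 0.27, and 12 of the 24 probe sets were then called higher and 4 lower, where the background was 29.4% higher and 9.45% lower. With median centring the median of all moved to -0.09, and 4 were called higher and 8 lower, with 15.2% and 21.0% as background. Quantile normalization gave 8 higher and 5 lower, with 17.8% and 18.5% as background. HSPE1, both DNAJA1 probe sets and the dim 243372_at of HSPD1 stayed lower under each of these scalings. Likewise 208744_x_at of HSPH1 and the dim 208814_at of HSPA4 stayed higher, and all of these stayed called. The 4 called probe sets that lost their call in at least 1 of the 14 alternatives were 211968_s_at and 211969_at of HSP90AA1, 208815_x_at of HSPA4 and 206976_s_at of HSPH1.

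**Figure D3:**
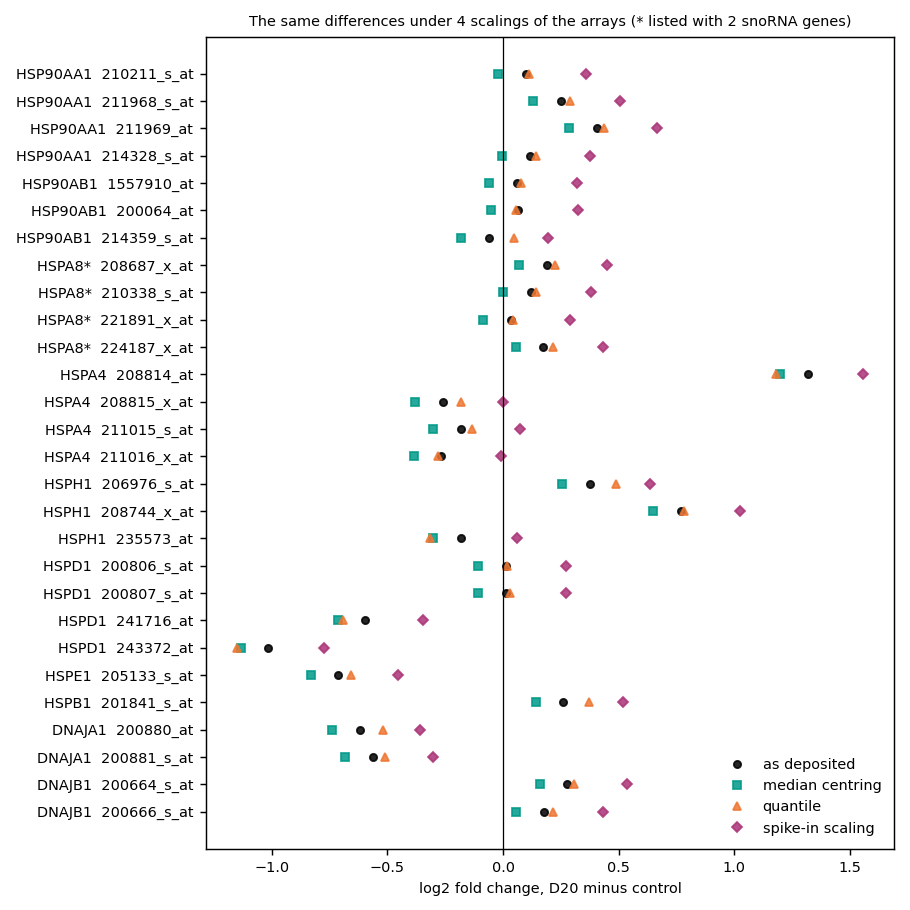
Log2 fold change, D20 minus control, of the 28 tested probe sets with the deposited values (black), median centring (green squares), quantile normalization (orange triangles) and spike-in scaling (purple diamonds). Spike-in scaling moves each probe set to the right by about the 0.24 by which it moves the median of all probe sets, and HSPE1 and DNAJA1 stay left of 0 under each.

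The genes around these 10, in 10 lists of 110 genes, were more often lower than higher in D20. Of the 89 genes tested 24 fell and 12 rose, which is 27.0% and 13.5%, against 19.7% and 22.5% of all 13781 genes. On the spike-in scale 26 were called higher and 12 lower, 29.2% and 13.5%, beside 32.9% and 11.0% of all genes, with a median of 0.14 against 0.28. HSP90B1, CDC37L1, ST13, CLPB, CCT3 and PFDN5, named below as falling, were then not called. For 13 of the 89 genes another probe set was called where the counted one was not, or in the opposite direction. The counts of 12 and 24 include HSBP1, DNAJC9 and AHSA2P, whose probe sets were called in both directions. The 24 also include HSPA1L, which passed the filter through the control alone. The median log2 fold change of the 89 genes was -0.11, against 0.04 over all genes. HSF1, the regulator of the heat shock response, was not called: 202344_at stood at 594 ± 96.6 (SD, n = 3) and 452 ± 184, a log2 fold change of -0.44 (limma, adjusted p = 0.18), and its other probe set, 213756_s_at, at 0.41 (adjusted p = 0.17). The D20 arrays A, B and C read 387, 659 and 310 for 202344_at, and its change depended on which were kept. Without D20 replicate B it was called lower (-0.74, limma, adjusted p = 0.011), the only call in 14 alternatives. Without D20 replicate C it was -0.21 (adjusted p = 0.53), and with spike-in scaling -0.19 (adjusted p = 0.60). HSF2 was not analysed here. HSBP1, which binds HSF1, was called higher by 200941_at (0.59) and lower by 200942_s_at (-0.32), so no direction is given for it. The remaining tested gene of this list of 3, HSF2BP, was not called (0.40, adjusted p = 0.15), and no count or median is read from the list.

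Among HSP90 relatives and partners more fell than rose, except that with spike-in scaling 3 co-chaperones rose and 3 fell. TRAP1, the mitochondrial HSP90, went from 4700 ± 526 to 2183 ± 172, which is -1.10 ± 0.10 on the log2 scale (SE; limma, adjusted p = 3.6e-06), and HSP90B1 (GRP94), the form in the endoplasmic reticulum, fell by 0.38. These were the 2 tested genes of that list, whose median was -0.74. Of 15 co-chaperones of HSP90 5 fell and 1 rose, with a median of -0.26. AHSA2P is counted as falling by 226665_at (-0.50), although 226334_s_at (0.66) and 230148_at (0.84) were called higher. FKBP4 (FKBP52) is counted as not called by the dim 1560303_at, although its bright probe sets 200895_s_at (4522 ± 87.3 to 2004 ± 126, -1.17, adjusted p = 4.4e-07) and 200894_s_at (-0.79) were called lower. STIP1 (HOP), which bridges HSP70 and HSP90, fell by 0.84 (adjusted p = 4.6e-05) and also by its other probe set (-0.39). The cyclophilin PPID fell by 0.996 with the dim 228469_at, while its 2 brighter probe sets gave -0.08 and -0.05, and CDC37L1 fell by 0.76, with its 2 other probe sets not called and its own call lost without control replicate A (adjusted p = 0.058).

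In the HSP70 lists the exchange factor BAG1 fell by all 3 of its probe sets. Its 202387_at went from 1166 ± 70.5 to 396 ± 14.2, which is -1.52 ± 0.13 on the log2 scale (SE; limma, adjusted p = 1.4e-06), and the others gave -1.01 and -1.51. BAG4 fell by 1.04. ST13 (HIP), an HSP70 co-chaperone, fell by 0.39 with 207040_s_at and also by 208666_s_at, while 208667_s_at gave -0.09 (adjusted p = 0.37). Of the 9 genes of that list 4 fell and 2 rose, with a median of -0.32, against 2 and 2 with spike-in scaling. Among 9 other HSP70 and HSP110 genes 2 fell and 0 rose, with a median of -0.38, and 2 rose with spike-in scaling. HSPA9 (mortalin), the mitochondrial HSP70, was lower by 200690_at (-0.66, adjusted p = 2.7e-04), but its brighter probe sets 200691_s_at (-0.13) and 200692_s_at (-0.20) did not pass the test. The other, HSPA1L, was dim: 210189_at read 137, 116 and 164 in the control and 84.5, 35 and 3.5 in D20, where its mean lay under the filter line of 43.2. It passed the filter through the control alone, its call was lost in 7 of 14 alternatives, and no fold is read from it. HSPA1L is still counted in the 2 falls and the median of this list, so no direction is read from them. Probe sets listed for both HSPA1A and HSPA1B, the inducible HSP70 genes, were not named. Of 20 other J-domain genes 5 fell and 3 rose, with a median of -0.04, which spike-in scaling turned to 2 and 6 with a median of 0.21. DNAJB2 (1.18) and DNAJC18 (1.18) rose from control means of 248 and 112. DNAJC9 is counted as higher by 229701_at (1.24), from a control mean of 47.8, near the filter line of 43.2. That call was lost with no filter (limma, adjusted p = 0.060) and without D20 replicate A or C (adjusted p = 0.10 and 0.052). The brighter DNAJC9 probe sets were called in both directions, 213088_s_at higher (0.28) and 213092_x_at lower (-0.33), so no direction is given for it.

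Of all genes 19.7% fell and 22.5% rose, and with spike-in scaling 11.0% fell and 32.9% rose, with a median of 0.28. Of 15 mitochondrial chaperones and proteases 4 fell and 4 rose with spike-in scaling, with a median of 0.06. At the deposited scale 6 of the 15 fell and 2 rose, with a median of -0.20. Besides TRAP1 and HSPA9 these falls included HSCB (-1.16, adjusted p = 1.1e-05), the J-domain protein of iron-sulfur cluster transfer, and CLPB (-1.14, adjusted p = 0.039, limma with Benjamini-Hochberg), whose call was lost without any 1 of 5 arrays, all but D20 array B, and whose change was -0.66 without D20 replicate A. In CCT, the chaperonin of the cytosol that folds actin and tubulin, 2 of 8 genes rose and 1 fell, with a median of 0.03. With spike-in scaling 4 of the 8 rose and 0 fell, with a median of 0.27. CCT6A rose by 1.10 with 201326_at, from 5436 ± 370 to 11656 ± 651, and by 0.20 (adjusted p = 0.090) with 201327_s_at, CCT4 rose by 0.23, and CCT3 fell by 0.38; with median centring CCT4 and PFDN1 were not called. In prefoldin, which hands substrates to CCT, 1 of 8 genes rose (PFDN1, 0.38) and 1 fell (PFDN5, -0.28), with a median of -0.01. Spike-in scaling gave 3 rises and 0 falls there, with a median of 0.25. Leaving out 1 array ended the call of CCT4 for 5 of the 6 arrays, all but D20 array A, of PFDN5 for 5, all but D20 array B, and of PFDN1 for 4, both D20 and control arrays A and C. Small heat shock proteins other than HSPB1 were mostly dim. Only 2 of 8 on the array were tested, HSPB8 and CRYAB, and neither was called. HSPB8 233057_at stood at 40.2 ± 36.9 and 98.9 ± 76.3, with a control mean under the filter line, and was called higher only where D20 replicate B was left out (adjusted p = 0.046), while its brighter 221667_s_at gave 0.33 (adjusted p = 0.42). CRYAB stood at 43.3 ± 29.7 and 100.03 ± 61.2 (adjusted p = 0.26). No fold or median is read from these, since the control lay at the filter line.

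**Figure D4:**
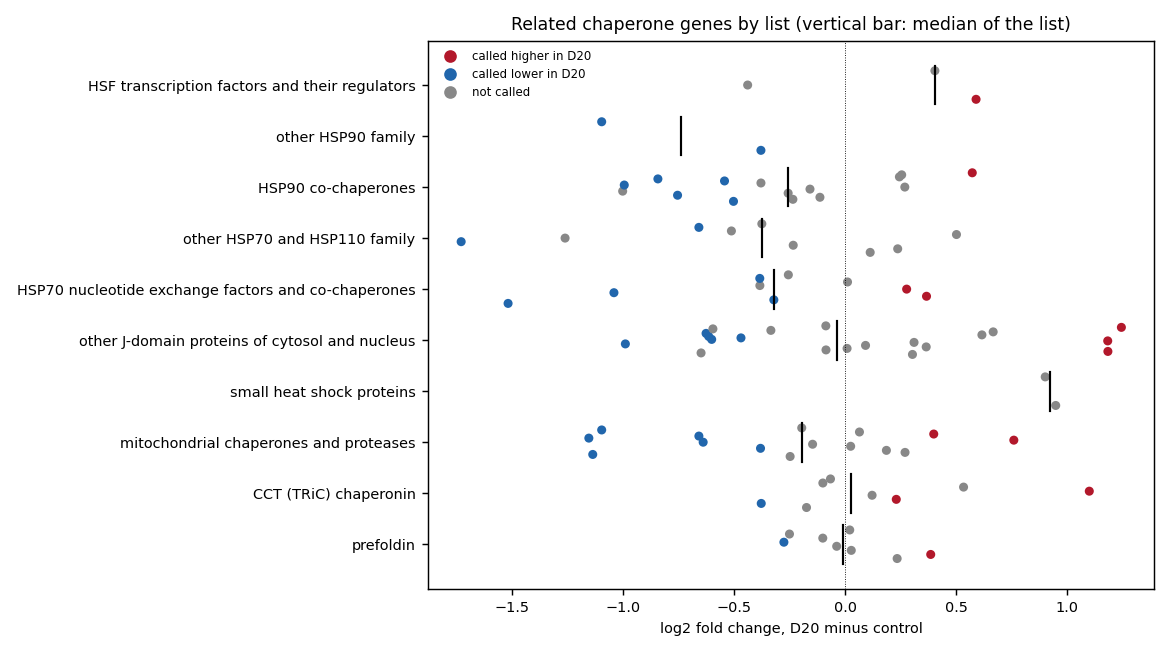
Log2 fold change, D20 minus control, of the tested genes of each of 10 lists of related chaperones and regulators, 1 point a gene (TRAP1 and HSPA9 stand in 2 lists), red called higher, blue called lower, grey not called, with the median of each list as a vertical bar. TRAP1 and HSP90B1, the 2 genes of the other HSP90 family, lie left of 0, and CCT6A stands apart from the other CCT genes at 1.10.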

How the data were processed

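RNA of 3 control and 3 D20 samples was measured on arrays. The deposited values are intensity values on a linear scale, 1 per probe set and array, made by the authors with MAS5 per the submitters' processing notes; its version and scaling target: not given in the sources used here. Depth does not apply to arrays, and their number limits the precision. Names came from GEO's platform annotation, with symbols updated by Entrez identifier to RefSeq (GRCh38.p14). Of the probe sets 41097 had 1 symbol and 1801 several. The latter were not named, except the 4 of the HSPA8 listing, which were kept because HSPA8 is a member.

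Signals were taken as log2(signal + 16). Left out were 62 control probe sets and, of the rest, the dimmest 40% by mean log2 signal (21845, under a signal of 43.2). limma 3.58.1 in R 4.3.3 (lmFit, eBayes with a trend) compared the clones over 6 arrays with no covariate, with Benjamini-Hochberg adjustment at 0.05. Within-array differences were tested by exact permutation with scipy 1.17.1. For a related gene the brightest tested probe set stood, those without the suffix _s_at or _x_at first. The suffix _x_at marks that a probe set can match other transcripts, and HSP90B1, HSCB and PFDN5 stood by such probe sets. All member probe sets are named, and of each list up to 3 called genes with the largest change, with HSF1. Other genes and probe sets named were chosen after their values were seen. Alternatives were the pseudocount (1 or 64), no filter, quantile normalization, median centring, spike-in scaling, no trend, a replicate block, leaving out each array, and leaving out or averaging probe sets. The members and lists were chosen with earlier results of these data known.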

Additional observations from a re-analysis of the deposited data

How the results depend on the processing

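Of the 10 calls among the 24 heat shock protein probe sets 6 were kept in all 14 refits, and 14 probe sets not called gained a call in at least 1, counting the HSPA8 listing. Probe sets called higher numbered 2 without the variance trend, 8 with quantile normalization, 12 with spike-in scaling and 2 without suffixed probe sets; those called lower numbered 8 with median centring and 2 without suffixed probe sets, where fewer were counted. With the HSPA8 listing, added after seeing the data, the counts remained 5 and 5. Related genes called higher, 12, numbered 6 with median centring, 7 with no filter, 6 without the variance trend and 26 with spike-in scaling; those called lower, 24, numbered 12 with spike-in scaling and 15 without suffixed probe sets. Leaving out 1 array gave 7 to 12 related genes higher, with 7 without control replicate C and 7 without D20 replicate C, 20 to 27 lower, 4 to 7 members higher, 4 to 5 lower, and 9715 to 11278 probe sets called in all against 11952. Averaging a gene's probe sets gave medians only.

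Among the heat shock protein probe sets signs turned only for those not called. With median centring 210211_s_at was at -0.020 and 214328_s_at at -0.0029 (HSP90AA1), 1557910_at at -0.059 and 200064_at at -0.053 (HSP90AB1), 221891_x_at at -0.087 (HSPA8 listing), and 200806_s_at and 200807_s_at at -0.11 (HSPD1). HSP90AB1 214359_s_at was at 0.047 with quantile normalization and 0.20 with spike-in scaling, which also gave 0.075 for HSPA4 211015_s_at and 0.059 for HSPH1 235573_at. Leaving out 1 array, 200806_s_at of HSPD1 ranged from -0.046 without D20 replicate C to 0.065 without D20 replicate A, and 200807_s_at from -0.045 to 0.060 (-0.01 without control replicate B). The cause was not tested. The replicate letters are shared between the clones, and the labels do not say whether they pair the samples. The deviations of same-lettered arrays correlated at -0.02, 0.05 and 0.01. With 3 arrays a clone this cannot decide the question, and the main fit took the arrays as unpaired. With the replicate block 7 member probe sets were called higher and 7 lower, and 12557 in all.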
